A study of Homo sapiens with 40 samples.

Results

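Aminoacyl-tRNA synthetases are the enzymes that join each amino acid to its transfer RNA (tRNA), the step that supplies ribosomes with their building blocks. Human cells keep separate nuclear-encoded sets of these enzymes for the cytosol and for mitochondria, and most amino acids are served by a pair of genes, with names ending in 1 for the cytosolic enzyme and in 2 for the mitochondrial one. Several cytosolic synthetases sit together in a large assembly, the multi-tRNA synthetase complex, and many cytosolic synthetase genes are known targets of ATF4, the transcription factor that is induced when amino acids are scarce or the endoplasmic reticulum is stressed. The genes described here were taken from a fixed list by symbol and matched to the deposited table through its Ensembl identifiers. All 35 listed genes were found among 62263 genes, 19 of the cytosolic class and 16 of the mitochondrial class, and all 35 were among the 16735 genes with enough counts to be tested.

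RNA was sequenced from BEAS-2B, an immortalised human bronchial epithelial cell line, in the Frac-seq format, which sets total RNA (input) beside RNA carried by polyribosomes (polysome). Cells carried a stable short hairpin RNA, either a control hairpin (shControl, here control) or a hairpin against IGF2BP3 (shIGF2BP3, here knockdown), an RNA-binding protein. They were grown in RPMI medium with 10% serum, kept overnight in 2% serum, left unstimulated or given IL-13, a cytokine of allergic airway inflammation, at 100 ng/ml, and harvested 24 h later per the growth protocol (the design text speaks of overnight stimulation), so that all 8 groups shared the line of origin, a stable hairpin and the serum reduction. Each group of fraction, treatment and line had 5 libraries, 40 in all, and each hairpin was represented by 1 cell line, so the hairpin and any other difference between the lines cannot be told apart. The labels do not say whether the 5 libraries of a group came from separate cultures, so p-values measure the spread between these libraries, which may be technical.

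Input libraries held 14044352 to 40441061 estimated counts (median 26189353) and polysome libraries 1816848 to 34082191 (median 19124845), with 3 knockdown polysome libraries under 5000000. Levels are given as CPM, counts scaled to library size, and only TPM, which are also corrected for transcript length, are compared between genes. The targeted gene IGF2BP3 measured a median of 31.3 CPM in unstimulated control and 25.5 CPM in unstimulated knockdown input libraries, with overlapping ranges, and it was not called in any comparison of the lines (input average log2 difference -0.48, SE 0.259, adjusted p = 0.957 by edgeR's quasi-likelihood test with Benjamini-Hochberg adjustment). Directions given for the knockdown therefore rest on the labels. Of the defining epithelial markers, KRT8 and KRT18 were high in all libraries (at least 214 and 381 CPM), while EPCAM and CDH1 stayed at or under 2.17 and 4.18 CPM, and the mesenchymal marker VIM lay between 630 and 2346 CPM. COL1A1 and PDGFRB, of the same mesenchymal list, had medians of 213 and 90.1 CPM, while COL1A2 had a median of 4.97 CPM and DCN stayed at or under 0.112 CPM. Of the 4 blood cell markers, PTPRC, CD3E and HBB were under 1 CPM throughout and CD14 lay between 3.48 and 38.1 CPM. Of the 3 endothelial markers, PECAM1 and VWF were under 1 CPM and CDH5 reached 12.4 CPM. Unstimulated control replicate 1 stood apart from the other libraries in both fractions for the synthetase genes, as described below, and results that rest on it are given with and without it.

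The start regions of the synthetase genes were searched for the core of the element bound by ATF4 and its C/EBP partners, spelled TGATGNAA and read on both strands, because many cytosolic genes stood apart in 1 library (below). RefSeq windows of 300 bases, from 250 before to 50 after the start of the gene (build GRCh38.p14), were found for 30 of the 35 genes and not for LARS1, VARS1, YARS1, AARS2 and VARS2. Of these 30 genes, 9 had 2 windows, so that 39 windows were searched, and a gene was counted when any of its windows held the core. The core was present in 7 of 16 cytosolic genes and 1 of 14 mitochondrial ones, against 4.46% of the 27305 genes in the table and 7 of 25 genes of the ATF4-responsive list used below. The 8 matches are printed 5′ to 3′ on the strand of the gene, 30 bases each, with the core in capitals, so that their shared letters can be compared.
AARS1, chr16:70289675-70289704: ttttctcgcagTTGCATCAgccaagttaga
CARS1, chr11:3057407-3057436: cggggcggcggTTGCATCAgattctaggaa
GARS1, chr7:30594834-30594863: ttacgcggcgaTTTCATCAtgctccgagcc
IARS1, chr9:92293692-92293721: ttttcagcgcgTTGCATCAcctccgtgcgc
MARS1, chr12:57488053-57488082: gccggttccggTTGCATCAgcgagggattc
NARS1, chr18:57621804-57621833: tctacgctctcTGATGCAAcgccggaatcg
TARS1, chr5:33440956-33440985: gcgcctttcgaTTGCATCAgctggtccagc
YARS2, chr12:32756076-32756105: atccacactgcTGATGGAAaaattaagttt
The genes of GARS1, MARS1 and TARS1 lie on the plus strand of the genome and the other 5 on the minus strand. The core began between 33 bases before and 15 bases after the start in 6 of the cytosolic genes (CARS1 -2, GARS1 -33, IARS1 -13, MARS1 -4, NARS1 15, TARS1 3), and further upstream in AARS1 (-187) and YARS2 (-197). CARS1, GARS1 and TARS1 each had a second window without the core. A match of letters is a description and not a binding site. HARS1 and HARS2, the histidine pair, lie head to head on chromosome 5, where their windows (chr5:140691321-140691620 and chr5:140691205-140691504) overlap, and neither held the core.

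Per length, the cytosolic class was the more abundant in input RNA. The median over 20 input libraries was 47.1 TPM for the middle cytosolic gene, with a range of 7.27 TPM (FARSB) to 141 TPM (QARS1), and 8.18 TPM for the middle mitochondrial gene, with a range of 1.48 TPM (MARS2) to 44.4 TPM (CARS2). In polysome RNA the corresponding class values were 20.1 and 10.7 TPM. The gap between the classes in level was therefore narrower in polysome libraries. QARS1, which charges glutamine tRNA and has no mitochondrial counterpart, was the most abundant of the 35 in input and the eighth in polysome RNA (47.2 TPM). YARS1, the tyrosyl enzyme, was the eighth in input (61.2 TPM) and the most abundant in polysome RNA (127 TPM). CARS2, the mitochondrial cysteinyl enzyme, ranked above every other mitochondrial gene in both fractions (44.4 and 70.9 TPM). At the other end, EPRS1, which charges glutamate and proline tRNA with a single polypeptide, had a median of 12.5 TPM in input and 1.77 TPM in polysome RNA.

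Polysome RNA was compared with input RNA to ask how the 2 classes were distributed between the fractions. Values are relative to the other RNAs of a library, so a difference is not the share of a transcript that is bound to ribosomes. Averaged over the 4 conditions (treatment by line), most cytosolic synthetases were lower in polysome than in input RNA, while most mitochondrial ones were higher. Of 19 cytosolic genes, 13 fell and 3 rose at an adjusted p under 0.05 (edgeR, over 16735 genes), and their median log2 difference was -1.11. Of 16 mitochondrial genes, 3 fell and 9 rose, with a median of 0.51. Of all genes tested, 65.1% were called, 38.9% lower and 26.2% higher, with a median of -0.24.

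**Figure D1:**
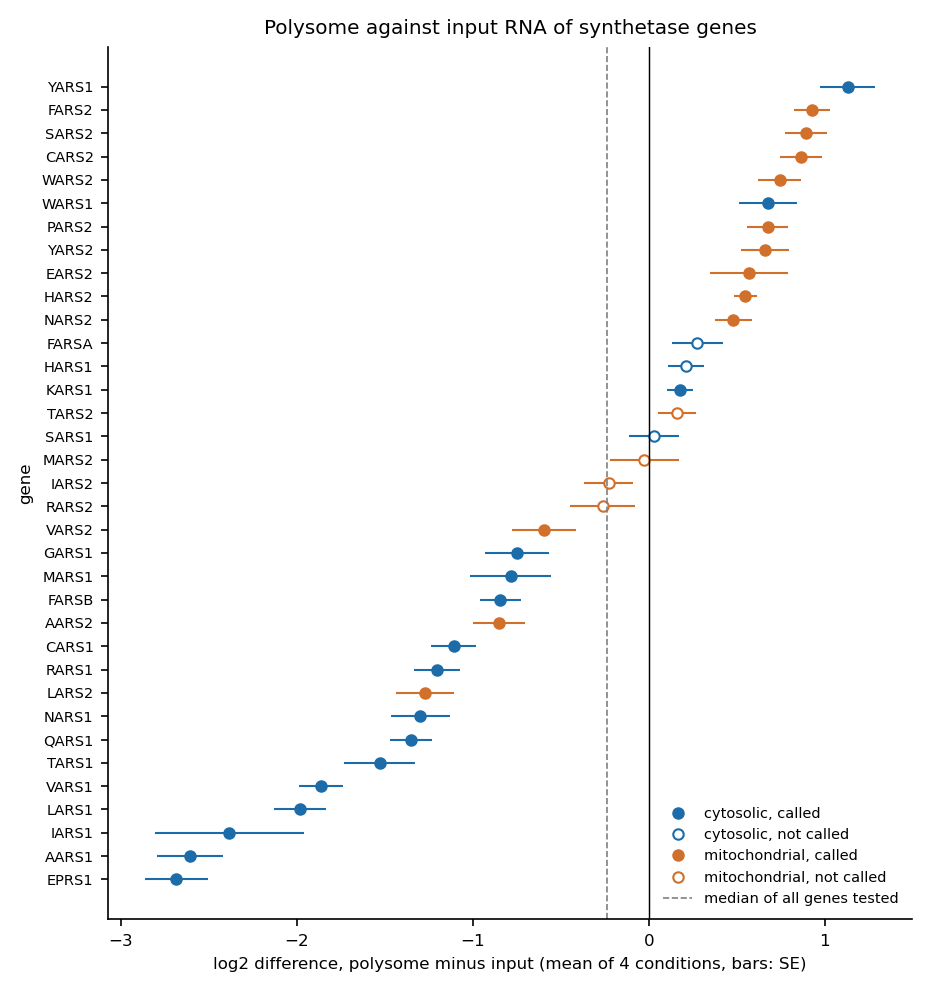
Each point is 1 synthetase gene, placed by its log2 difference between polysome and input libraries averaged over 4 conditions, with its standard error, cytosolic in blue and mitochondrial in orange, filled where called. The cytosolic genes occupy the lower end down to -2.68 (EPRS1), and 9 of the 12 called genes on the higher side are mitochondrial.

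The largest decreases were those of EPRS1 (ENSG00000136628.18) and AARS1 (ENSG00000090861.17), the alanyl enzyme. In unstimulated control cells, replicates 1 to 5 gave 69.8, 58.0, 67.7, 50.6 and 42.3 CPM of EPRS1 in input and 9.60, 12.4, 6.50, 3.43 and 5.57 CPM in polysome RNA. Every input library lay above every polysome library. Over the 4 conditions the log2 difference of EPRS1 was -2.68 (SE 0.180, adjusted p = 4.4e-16). AARS1 gave 379, 246, 183, 181 and 237 CPM in input and 75.4, 30.6, 33.0, 50.6 and 31.7 CPM in polysome RNA of the same groups. These groups again did not overlap, and the average log2 difference was -2.61 (SE 0.188, adjusted p = 3.5e-15). AARS1 was listed at 0 in 1 of the polysome libraries of low depth, unstimulated knockdown replicate 5.

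IARS1 (ENSG00000196305.19), the isoleucyl enzyme, was also lower in polysome RNA, with the widest error of the class (log2 difference -2.39, SE 0.423). Its polysome values were scattered: 177, 9.37, 31.3, 0 and 34.1 CPM in unstimulated control, 11.2, 0, 12.7, 36.7 and 15.2 CPM in IL-13 control, 22.4, 62.7, 11.2, 38.4 and 15.6 CPM in unstimulated knockdown, and 60.2, 50.6, 46.8, 23.0 and 0 CPM in IL-13 knockdown. The gene was thus listed at 0 in 3 libraries of separate groups and was highest in unstimulated control replicate 1. Its input values lay between 80.5 and 215 CPM.

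YARS1 (ENSG00000134684.13) went the other way and was the cytosolic gene with the largest rise. In unstimulated control its input values were 394, 119, 105, 105 and 138 CPM and its polysome values 999.8, 241, 222, 339 and 324 CPM. The ranges overlapped there through replicate 1, which was the highest library of both groups. In IL-13 control, input values were 119, 129, 106, 154 and 108 CPM and polysome values 150, 277, 268, 264 and 269 CPM, so that only polysome replicate 1 reached into the input range. The average log2 difference of YARS1 was 1.13 (SE 0.158, adjusted p = 6.3e-08). WARS1, the tryptophanyl enzyme, which interferon induces, rose by 0.68 (SE 0.165, adjusted p = 0.00047). KARS1, the lysyl enzyme that serves both cytosol and mitochondria, was called with a small rise of 0.18 (SE 0.0754, adjusted p = 0.038). That call was lost without unstimulated control replicate 1 (0.13, adjusted p = 0.095). It was also lost without any of several other single libraries, such as IL-13 control polysome replicate 4 (0.15, adjusted p = 0.074).

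The remaining cytosolic genes were called lower between -1.98 for LARS1, the leucyl enzyme, and -0.75 for GARS1, the glycyl enzyme, which like KARS1 serves both compartments, apart from 3 that were not called. VARS1 (-1.86), TARS1 (-1.53), QARS1 (-1.35), NARS1 (-1.30), RARS1 (-1.20) and CARS1 (-1.11), which charge valine, threonine, glutamine, asparagine, arginine and cysteine tRNA, lay between them, as did MARS1 (-0.78), the methionyl enzyme. Of the partner subunits of the phenylalanyl enzyme, FARSB fell by 0.84 (SE 0.118), while FARSA had a difference of 0.27 (SE 0.145, adjusted p = 0.095) that was not called. HARS1 (0.21, adjusted p = 0.070) and SARS1 (0.03, adjusted p = 0.88) were the other uncalled genes. Of the 7 synthetases of the multi-tRNA synthetase complex (EPRS1, IARS1, LARS1, QARS1, MARS1, RARS1 and KARS1), 6 fell and 1 rose, with a median of -1.35. The 3 scaffold proteins of that complex did not share 1 direction: AIMP1 fell by 0.30, AIMP2 rose by 1.43 and EEF1E1 had an uncalled difference of 0.16 (adjusted p = 0.26).

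Among mitochondrial synthetases, FARS2 (ENSG00000145982.13), the phenylalanyl enzyme, had the largest rise. Its values in unstimulated control were 10.7, 20.7, 18.9, 27.2 and 22.7 CPM in input and 33.8, 46.1, 40.3, 62.0 and 33.9 CPM in polysome RNA. All polysome libraries lay above all input libraries, and the average log2 difference was 0.93 (SE 0.0998, adjusted p = 1.7e-10). SARS2 (0.89), CARS2 (0.86), WARS2 (0.74), PARS2 (0.68), YARS2 (0.66), EARS2 (0.57), HARS2 (0.55) and NARS2 (0.48) rose as well. These enzymes charge the mitochondrial tRNAs for serine, cysteine, tryptophan, proline, tyrosine, glutamate, histidine and asparagine. The call of EARS2 rested on unstimulated knockdown polysome replicate 4 (adjusted p = 0.053 without it, 0.024 with it). LARS2 (ENSG00000011376.12), the leucyl enzyme, fell: 22.0, 22.6, 17.6, 17.1 and 26.2 CPM in unstimulated control input stood against 5.43, 11.8, 9.80, 10.7 and 6.24 CPM in polysome RNA, without overlap, and the average difference was -1.27 (SE 0.164, adjusted p = 1.2e-08). AARS2 (-0.85) and VARS2 (-0.60) were the other mitochondrial genes that fell. The remaining 4, TARS2 (0.16), MARS2 (-0.03), IARS2 (-0.23) and RARS2 (-0.26), were not called.

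The direction of each class was alike in the 4 conditions. In each of them 11 cytosolic genes fell and 1 (YARS1) rose, against 22.8% of all genes lower and 17.4% higher in unstimulated control (40.2% called), 22.6% and 16.7% in IL-13 control (39.3%), 22% and 16.4% in unstimulated knockdown (38.5%) and 23.3% and 16% in IL-13 knockdown (39.3%). The cytosolic medians were -0.93, -1.23, -1.03 and -1.10 in the same order. Of the mitochondrial genes, 8 rose in unstimulated control, 6 in IL-13 control, 6 in unstimulated knockdown and 7 in IL-13 knockdown, with 2 lower (AARS2 and LARS2) in each, and the medians were 0.61, 0.37, 0.44 and 0.39. The genes called lower in all 4 conditions were 10 cytosolic and 2 mitochondrial ones, and the genes called higher in all 4 were YARS1, CARS2, FARS2, HARS2 and SARS2. Libraries of the fractions did not overlap, with polysome lower, for 12 cytosolic genes in each of IL-13 control, unstimulated knockdown and IL-13 knockdown (16.2%, 19.7% and 21.5% of all genes) and for 5 in unstimulated control (15.6% of all genes), the group that holds replicate 1. When input and polysome libraries with the same number, treatment and line were set side by side, the cytosolic median was below 0 in 20 of 20 such pairs (-1.48 to -0.40) and the mitochondrial median was below 0 in 2 of 20 (-0.12 to 0.87).

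For 13 amino acids the list holds a cytosolic and a mitochondrial gene with names that differ only in their ending 1 or 2, and these were compared as pairs. The enzymes for phenylalanine, glutamate and proline, whose cytosolic genes are named otherwise, were left out of the pairs. The mitochondrial gene had the higher polysome difference in 12 of the 13, and the median gap over the 13 pairs was 0.94 (log2). The gaps were widest for isoleucine (IARS1 -2.39, IARS2 -0.23), cysteine (CARS1 -1.11, CARS2 0.86) and asparagine (NARS1 -1.30, NARS2 0.48). Tryptophan gave nearly equal values (WARS1 0.68, WARS2 0.74), and tyrosine was the exception (YARS1 1.13, YARS2 0.66). No test was made of the difference between the classes, since genes are not replicates.

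Coding length differed between the classes and moved with the polysome difference. The longest annotated coding sequence had a median of 2217 bases (1413 to 4536) in cytosolic and 1647 bases (1080 to 3279) in mitochondrial genes, and the cytosolic gene was the longer one in 11 of the 13 pairs. When the 13445 genes with an annotated coding sequence were split by length into 10 bins of near equal size, the bin of the longest had a median polysome difference of -1.66 and the bin of 759 to 972 bases a median of 0.61. Spearman's rho between coding length and the difference was -0.86 across the 19 cytosolic genes, -0.80 across the 16 mitochondrial genes and -0.45 across all 13445, as a description across genes that share their libraries. Of 10 cytosolic genes longer than 2000 bases, 10 fell. Of 9 shorter ones, 3 fell (FARSB, NARS1 and RARS1) and 3 rose. Of 11 mitochondrial genes up to 2000 bases, 9 rose and 0 fell, and of 5 longer ones, 3 fell and 0 rose. Across the bins from 973 to 2007 bases, 14.6%, 18.2%, 26.3% and 39% of all genes were called lower, and 55.2%, 43.9%, 32.3% and 22.1% higher. Across the bins from 2010 bases up, 52.5%, 66.8% and 86.3% were called lower, and 12.4%, 4.84% and 1.56% higher. Set against the median of their own length bin, 13 of 19 cytosolic genes lay below it (median -0.32) and 14 of 16 mitochondrial genes above it (median 0.51). The part of length in the difference between the classes was not tested further.

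**Figure D2:**
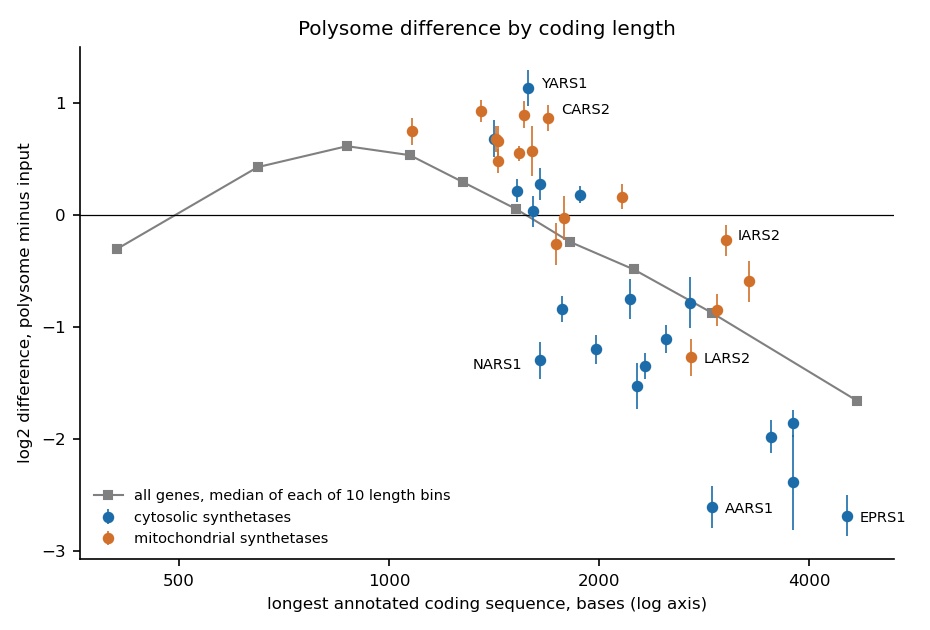
The log2 polysome minus input difference (with standard error) is plotted against the longest annotated coding sequence in bases on a log axis for 19 cytosolic (blue) and 16 mitochondrial (orange) genes, with the median of all genes in each of 10 length bins as grey squares. Both classes slope downward with length, from 0.74 (WARS2, 1080 bases) to -2.68 (EPRS1, 4536 bases), and AARS1 (-2.61) and NARS1 (-1.30) lie far below the grey line.

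Genes that work beside the synthetases were mixed. Of 15 genes of tRNA maturation, export and modification, 8 rose and 4 fell in polysome RNA. The subunits that convert glutamate to glutamine on mitochondrial tRNA were split, with GATB (0.68) and QRSL1 (0.68) higher and GATC (-1.14) lower. Of 9 mitochondrial translation factors, 3 rose, led by the elongation factors TSFM (1.77) and TUFM (1.09), and 1 fell, the elongation factor GFM1 (-1.94). Of 32 genes known to respond to ATF4, 8 rose and 17 fell. The counts of these lists are to be read against the shares of all genes called lower and higher, given above for the average over conditions.

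The effect of the hairpin was asked next, in each fraction and treatment. No synthetase was called between the lines by edgeR in any of the 6 comparisons, and none was called by the DESeq2 Wald test. The background of calls was itself low: 0.012% of all genes in unstimulated input, 0% in IL-13 input, 0.406% in input averaged over treatments, 0.0299% in unstimulated polysome, 0.0896% in IL-13 polysome and 1.38% in polysome averaged over treatments. At an unadjusted p under 0.05, cytosolic genes numbered 2, 0, 0, 5, 0 and 3 of 19 in that order, and mitochondrial genes 0 of 16 in each, where 2.97%, 3%, 5.87%, 7.42%, 9.92% and 14.7% of all genes reached it. In unstimulated polysome RNA the cytosolic median was -0.46 and the mitochondrial median 0.01. MARS1 had the lowest value there (log2 difference -1.22, SE 0.465, adjusted p = 0.44), and SARS1, the seryl enzyme, the smallest p (-0.79, SE 0.284, adjusted p = 0.39). Without unstimulated control replicate 1 the cytosolic median of that comparison was 0.05, MARS1 was at -0.47 and SARS1 at -0.27. In unstimulated input the cytosolic median went from -0.18 to -0.05 and the mitochondrial median from 0.12 to -0.002. In polysome RNA averaged over treatments and without that replicate, NARS1 had the lowest adjusted p of the 35 (log2 difference 0.63, SE 0.195, adjusted p = 0.069) and was not called.

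IL-13 likewise left no synthetase called in any of its 6 comparisons by edgeR or by DESeq2. All genes called amounted to 0.0777% in control input, 0.0837% in knockdown input, 0.149% in input averaged over lines, 0.125% in control polysome, 0.0956% in knockdown polysome and 0.209% in polysome averaged over lines. An unadjusted p under 0.05 was reached by 1, 0, 0, 7, 0 and 1 cytosolic and by 0, 0, 0, 0, 1 and 0 mitochondrial genes, in that order, and by 2.04%, 1.03%, 1.96%, 5.14%, 3.21% and 5.28% of all genes. The comparisons in control cells share the unstimulated control group with the comparisons of the lines. In control polysome RNA, 17 of 19 cytosolic genes lay below 0 with IL-13, and the median was -0.41, whereas the mitochondrial median was -0.03. TARS1, the threonyl enzyme, had a log2 difference of -1.16 (SE 0.402, adjusted p = 0.52) and MARS1 of -1.23 (SE 0.463, adjusted p = 0.65). Without replicate 1 TARS1 was at -0.20 and MARS1 at -0.48, and the cytosolic median was -0.10, with 13 of 19 genes below 0. In control input the cytosolic median was -0.21 with and -0.03 without that replicate. In knockdown cells, which do not involve it, the cytosolic medians were 0.02 in input and 0.03 in polysome RNA, and the mitochondrial medians -0.05 and -0.06. Averaged over lines without that replicate, the 35 log2 differences with IL-13 lay between -0.24 and 0.24 in input and between -0.49 and 0.26 in polysome RNA.

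**Figure D3:**
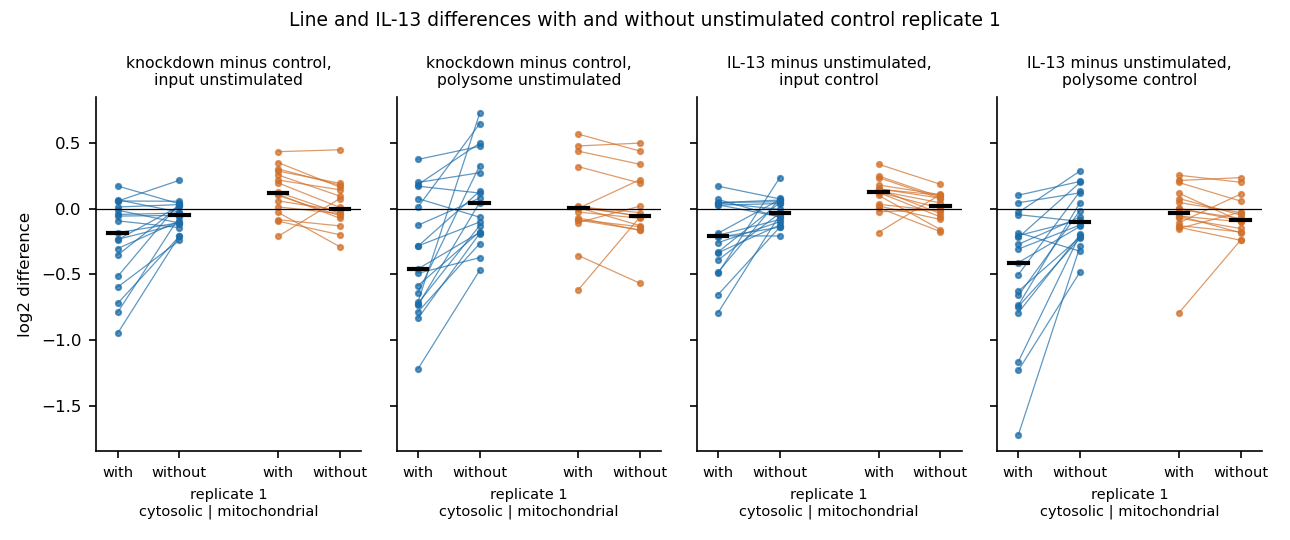
Each line joins the log2 difference of 1 synthetase gene with and without unstimulated control replicate 1, in the 4 comparisons that use the unstimulated control group within a fraction, with cytosolic genes in blue, mitochondrial genes in orange and class medians as black bars. The cytosolic medians move from -0.18, -0.46, -0.21 and -0.41 to -0.05, 0.05, -0.03 and -0.10, left to right.

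Whether the effect of the hairpin or of IL-13 differed between polysome and input RNA, and whether the effect of IL-13 differed between the lines, was tested with interaction terms. None of the 35 genes, and 0% of all genes, was called in these 4 tests by edgeR, and among the synthetases 1 cytosolic gene (TARS1, IL-13 effect between lines in polysome, log2 1.23, SE 0.566, adjusted p = 1) had an unadjusted p under 0.05. DESeq2 called no synthetase in them either. Without unstimulated control replicate 1, the IL-13 effect on TARS1 in polysome RNA was 0.07 in knockdown and -0.20 in control cells. With that replicate, the values were 0.07 and -1.16.

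Unstimulated control replicate 1 was described against the other 4 libraries of its group, as the difference on the log2(CPM + 1) scale, with no test since it is 1 library. Most cytosolic genes were higher in it (15 of 19 in input, 17 of 19 in polysome RNA) and most mitochondrial genes lower (14 and 12 of 16). In input, the cytosolic median was 0.54, with 6 of 19 genes more than 2-fold higher and 0 lower, and the mitochondrial median was -0.62, with 0 of 16 higher and 4 more than 2-fold lower. In polysome RNA, the cytosolic median was 1.41, with 12 of 19 genes more than 2-fold higher and 0 lower, and the mitochondrial median -0.31, with 1 higher and 1 lower. Of all genes tested, 4.34% were more than 2-fold higher and 4.51% lower in the input library, and 8.84% and 5.81% in the polysome library. In bulk RNA, a change in some of the cells and a smaller change in all of them cannot be told apart. The labels do not say whether the input and polysome libraries numbered 1 came from the same culture.

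The widest gaps in input were those of GARS1, WARS1, YARS1 and MARS1. GARS1 (ENSG00000106105.15) measured 362 CPM in replicate 1 and 88.4, 80.9, 71.3 and 90.9 CPM in replicates 2 to 5. WARS1 (ENSG00000140105.18) measured 459 CPM against 98.9, 94.7, 102 and 133 CPM. MARS1 (ENSG00000166986.15) measured 376 CPM against 131, 86.4, 90.1 and 172 CPM. In each of these genes replicate 1 also lay above the other 19 input libraries, as it did for YARS1, CARS1 (199 CPM, others at most 110), TARS1 (264, at most 137), SARS1 (347, at most 219), AARS1 (379, at most 252), NARS1, LARS1 and EPRS1. These 11 of 19 cytosolic genes compare with 14.6% of all genes. At the other end, QARS1 (158 CPM in replicate 1, 222 to 337 CPM in the other 19 input libraries) and RARS1 (54.4 CPM, 59.1 to 107 CPM) were below all others in it.

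In polysome RNA the same replicate number was again the highest library for 13 of 19 cytosolic genes (12.4% of all genes). WARS1 measured 755 CPM against 203, 186, 216 and 184 CPM, and SARS1 (ENSG00000031698.13) 635 CPM against 136 to 292 CPM. TARS1 (ENSG00000113407.14) measured 169 CPM against 45.6, 35.0, 17.5 and 17.9 CPM. IARS1 had the widest gap, 177 CPM against 0 to 34.1 CPM, while in input its replicate 1 (166 CPM) lay inside the range of the other 4 (129 to 200 CPM). HARS1 (265 CPM, other 19 at most 205) and KARS1 (250 CPM, at most 192) were likewise highest in the polysome library and within the range of the others in input (136 and 136 CPM). QARS1 was below the other 19 here too (66.6 CPM, others 67.0 to 181).

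Among mitochondrial genes, 11 of 16 had their lowest of 20 input values in this replicate, against 15.4% of all genes. EARS2 (ENSG00000103356.18), the glutamyl enzyme, measured 1.29 CPM against 7.62, 4.59, 8.49 and 9.33 CPM. WARS2 (ENSG00000116874.12) measured 7.46 CPM against 16.8, 20.0, 18.9 and 19.7 CPM. Both stood below their group, as did AARS2 (8.28 CPM against 15.4 to 28.1) and RARS2 (8.07 CPM against 11.5 to 26.5). MARS2 (ENSG00000247626.5) was the exception among the mitochondrial genes, at 7.10 CPM against 3.41, 2.26, 4.04 and 3.75 CPM in input and 11.4 CPM against 4.27, 3.51, 3.16 and 2.45 CPM in polysome RNA, higher than all other libraries in both. In polysome RNA, 0 of 16 mitochondrial genes were below all other 19 libraries (6.29% of all genes).

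**Figure D4:**
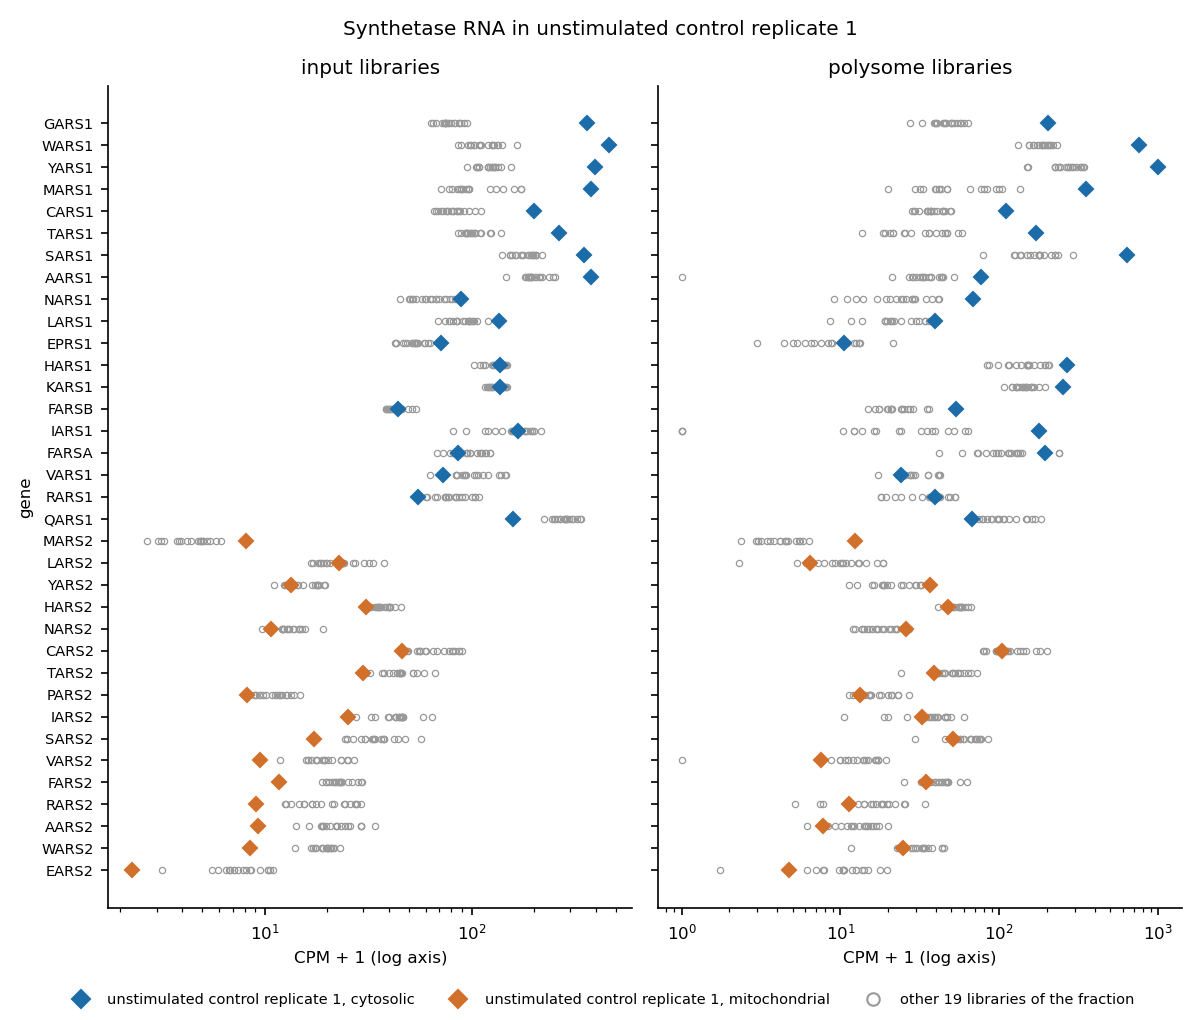
CPM plus 1 on a log axis for each synthetase gene in the 20 input (left) and 20 polysome (right) libraries, with unstimulated control replicate 1 as a filled diamond (blue cytosolic, orange mitochondrial) and the other 19 as open circles. The diamonds of GARS1, WARS1, YARS1 and MARS1 stand to the right of all circles in both panels, and 11 orange diamonds stand to the left of all circles in input.

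No other library set the cytosolic class apart by as much. Over the other 19 input libraries, each set against the rest of its own group, the cytosolic median lay between -0.30 and 0.30 and no cytosolic gene was more than 2-fold higher. Over the other 19 polysome libraries it lay between -0.61 and 0.27, with at most 2 cytosolic genes more than 2-fold higher and at most 4 lower. Of the 32 ATF4-responsive genes, which include none of the synthetases, 32 were higher in input replicate 1, 24 of them more than 2-fold (median 1.51), and 25 were more than 2-fold higher in polysome RNA (median 1.69). ASNS, asparagine synthetase, measured 346 CPM in input against 5.35 to 27.7 CPM, TRIB3, a pseudokinase induced by ATF4, 375 CPM against 26.2 to 62.1 CPM, and PSAT1, an enzyme of serine synthesis, 566 CPM against 49.1 to 110 CPM. Of 12 interferon-responsive genes, chosen because interferon also induces WARS1, 10 were higher in input, 1 of them more than 2-fold, and the median was 0.49. In polysome RNA 9 of these 12 were higher, 1 of them more than 2-fold, with a median of 0.47. Among the cell type markers in input replicate 1, CD14 was at 30.6 CPM against 10.2 to 20.3 CPM in the other 4 (29.8 CPM against 7.27 to 21.1 CPM in polysome RNA). Of the 4 mesenchymal markers tested, 2 were more than 2-fold lower in input (PDGFRB and COL1A2, median of the 4 -1.32) and 1 in polysome RNA (PDGFRB, median -0.39). Of the 6 epithelial markers, 2 were more than 2-fold lower in input and 0 in polysome RNA. The part of these genes in the synthetase values was not tested. The 7 cytosolic genes with the printed core had median differences of 1.27 in input and 2.19 in polysome RNA, and the 9 cytosolic genes with a window but no core 0.06 and 0.81. Among those without the core, WARS1 (2.10 in input), SARS1 (0.98) and FARSB (1.42 in polysome) were also higher in replicate 1, and among those with it, IARS1 was higher in polysome RNA only. YARS2, the mitochondrial gene with the core, was at -0.21 in input and 0.92 in polysome RNA.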

How the data were processed

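Per the labels' protocols, poly(A) RNA was sequenced with a stranded kit. The submitters' processing notes name Trimmomatic, Salmon, DESeq2 and MultiQC without versions, and the genome build is not given in the sources used here. The authors deposited an estimated count (a decimal number, unscaled) for each gene in each library, and TPM values, scaled for length and depth, which were deposited in the same table. The column names write siC and siIGF2BP3 where the protocol describes stable hairpin lines.

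The design had assumed whole counts, so the estimated counts were rounded. Genes were kept with filterByExpr, scaled with TMM and fitted with edgeR 4.0.16 in R 4.3.3, with 1 mean per group over 40 libraries (32 residual degrees of freedom). Tests were two-sided, with Benjamini-Hochberg adjustment over 16735 genes and calls at an adjusted p under 0.05. Pairs of replicate libraries were checked for copies and none was found (lowest chi-square per degree of freedom 15.27 over 80 pairs). Gene symbols matched 62246 of 62263 identifiers. Coding lengths came from GENCODE 29, for 80.3% of genes tested and all 35 synthetases, and start windows from RefSeq.

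Every synthetase could be named. Other genes came from lists and were named by largest difference, at most 6 per list, or as subunits of 1 enzyme or complex, chosen after their values were seen. The members, the lists, the tests and the alternatives were chosen with earlier results of these data known. Alternatives were DESeq2 size factors, the DESeq2 1.42.0 Wald test, other filters (no minimum, or 10 CPM), only the libraries compared, replicate blocks, a length offset, a pseudocount of 0.1 CPM, deposited TPM, and libraries left out. On simulated data, of 200 genes changed 2-fold the fit recovered 77% for polysome against input, 68.5% for the line effect in input and 59.5% for the IL-13 effect in polysome, with 2.53%, 2.14% and 4.03% of calls false. These were the comparisons averaged over conditions, treatments or lines. The simulation gave each gene the spread typical of its level and changed no gene of very low counts. It had no library set apart like unstimulated control replicate 1. The rates are therefore not those to be expected for single synthetases.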

Additional observations from a re-analysis of the deposited data

Results flagged for a closer look

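Each synthetase was examined in each group of 5 libraries for a highest or lowest value far from the other 4, which flagged 31 of 280 sets of values. About 14 would be expected by chance for independent, normally spread values, but the genes share their libraries, so the excess was not tested. Of the 31 flagged, 14 were in unstimulated control replicate 1, 12 of them cytosolic. In its input library these were WARS1 (459 CPM), YARS1 (394), GARS1 (362), SARS1 (347), TARS1 (264) and CARS1 (199 CPM), all high, and WARS2 (7.46 CPM), low. In its polysome library they were YARS1 (999.8 CPM), WARS1 (755), GARS1 (202), IARS1 (177), TARS1 (169), CARS1 (109) and MARS2 (11.4 CPM), all high.

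A further 2 were in a polysome library under 5000000 counts, unstimulated knockdown replicate 5, where AARS1 was listed at 0 CPM and FARS2 measured 24.0 CPM, both low.

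The other 15 were scattered over other libraries. IL-13 knockdown input replicate 3 held YARS1 (94.4 CPM), WARS1 (87.6) and HARS1 (102) as low values and EPRS1 (60.8 CPM) as a high one. Unstimulated knockdown input replicate 2 was high for QARS1 (337 CPM), MARS1 (160) and IARS2 (63.2 CPM). QARS1 (166 CPM) and VARS1 (40.1 CPM) were high in IL-13 control polysome replicate 2. YARS1 (150 CPM) was low in IL-13 control polysome replicate 1 and IARS2 (26.5 CPM) low in the input library of the same group and number. The remaining values were FARSB in unstimulated knockdown input replicate 1 (50.4 CPM), MARS1 in IL-13 knockdown input replicate 5 (141 CPM), IARS2 in unstimulated knockdown polysome replicate 4 (59.0 CPM) and VARS2 in IL-13 control input replicate 3 (23.9 CPM).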

How the results depend on the processing

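Depth limits the 3 polysome libraries under 5000000 counts and genes of a few CPM, such as EARS2 and MARS2. In polysome against input averaged over the 4 conditions, the medians of both classes kept their sign in all alternatives run. Leaving out each library in turn gave 15 to 18 cytosolic and 11 to 13 mitochondrial genes called. The values that moved by more than the margin were all in single conditions. In unstimulated control, 7 cytosolic genes were called with only the libraries compared (12 with all 40) and 6 mitochondrial genes without a filter on low counts (10 with it), and in unstimulated knockdown the cytosolic median was -0.87 with a length offset (-1.03 without). Leaving out 1 library, cytosolic calls ran from 11 to 14 in unstimulated control, 12 to 12 in IL-13 control, 11 to 12 in unstimulated knockdown and 11 to 12 in IL-13 knockdown, and mitochondrial calls from 7 to 10, 7 to 8, 7 to 10 and 7 to 9. The causes were not tested. The DESeq2 size factors moved the median of all genes from -0.24 to -0.18, and with them 5 cytosolic genes were called higher and 13 lower. Dropping the filter moved it to -0.32 and the filter of 10 CPM to -0.06. KARS1 was the least stable call, with adjusted p-values up to 0.21 (no filter), and VARS2 lost its call with the length offset (adjusted p = 0.099). No synthetase was called for the line, for IL-13 or for their differences under any alternative run.

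Over 20 input and polysome pairs of 1 treatment, line and number, the correlation of their deviations was -0.33 to 0.54 (median 0.02). Of these pairs, 7 were over 0.1 and 6 were best with their own number, so the numbers were not taken as a general pairing. In unstimulated control replicate 1, however, the cytosolic class was higher in both fractions (medians 0.54 in input and 1.41 in polysome RNA). With the replicate number as a block, polysome against input averaged over conditions gave 3 cytosolic genes higher and 13 lower, and 9 mitochondrial higher and 3 lower, the same counts as without it. With treatment, line and number as the block it gave 2 and 13, and 9 and 3.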
